A study of Homo sapiens with 3 samples.

Results

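Placental-gene-expressing cells were a rare group in co-cultures of Caco-2 and HT29, both human colorectal cancer lines. They were chosen by UMIs (unique molecular identifiers, which mark single captured RNA molecules). Cells with at least 1500 UMIs, at least 700 genes and at most 20% mitochondrial UMIs were kept. A kept cell was chosen when it held at least 3 UMIs of TFAP2C, PTN, FABP7 and ERVH48-1 together and at least 2 of these 4 genes were detected. The rule picked 59 of 15560 kept cells. Caco-2 and HT29 cells had been seeded 9:1 on Transwell inserts, where the Caco-2 line differentiates towards absorptive enterocytes and the HT29 line holds mucus-secreting cells. Control 1 and control 2 were untreated inserts. The third insert, the LPS library, received 1 ng/ml lipopolysaccharide (LPS, a bacterial cell wall component) of Escherichia coli O111:B4 on day 22, and all 3 were harvested on day 23. Each insert gave 1 library of the 10x Genomics 3′ assay, with 5811, 6495 and 6838 barcodes and 33893707, 27934953 and 24185467 UMIs in control 1, control 2 and the LPS library. After filtering, 5093, 5307 and 5160 cells remained, with median totals of 5496, 4196 and 3676 UMIs, so the LPS library was the shallowest. Libraries shared 8, 6 and 5 kept barcodes with each other, and none of these was a chosen cell in both libraries of a pair. Whether a shared barcode was a chosen cell in only 1 of them was not counted. The labels do not say whether the inserts came from separate cultures, so a p-value measures the spread between these 3 libraries.

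Trophoblast is the epithelium of the placenta. Its villous cytotrophoblast divides and fuses into the syncytiotrophoblast, which faces maternal blood, takes up nutrients and secretes hormones, while extravillous trophoblast invades the uterine wall. The transcription factors TFAP2C, TFAP2A, GATA2 and GATA3 maintain the lineage, and fusion uses syncytins, envelope proteins of endogenous retroviruses.

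The rule genes are given as a description, since they chose the cells. TFAP2C (ENSG00000087510, chr20:56629306-56639283 in GRCh38), which encodes an AP-2 transcription factor of trophoblast and germ cells, was at 197 CPM (counts per 1e6 UMIs of a summed cell class) in the chosen cells of control 1, 213 CPM in control 2 and 187 CPM in the LPS library. All other kept cells held 4.16, 5.09 and 5.32 CPM of it. PTN (ENSG00000105894, chr7:137227341-137343774), the heparin-binding growth factor pleiotrophin, reached 359, 581 and 160.3 CPM against 0.0607, 0.716 and 0.0894 CPM. FABP7 (ENSG00000164434, chr6:122779716-122784074), a fatty acid-binding protein known from the brain, reached 517, 673 and 534 CPM against at most 0.377 CPM. ERVH48-1 (ENSG00000233056, chr21:42916803-42925630) encodes suppressyn, a retroviral envelope product that blocks the receptor of syncytin-1, and was at 133, 221 and 240.4 CPM against at most 0.528 CPM. BASP1 (ENSG00000176788, chr5:17065598-17276843), a membrane-bound signalling protein and the other marker given for these cells, was at 719, 981 and 614 CPM in the chosen cells and 7.07, 15.9 and 13.98 CPM in the others. The distance between the classes in the first 4 genes was set by the rule. Single cells overlapped, since 2.55% of the other Caco-2-line cells held a TFAP2C UMI and 5.32% a BASP1 UMI.

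**Figure D1:**
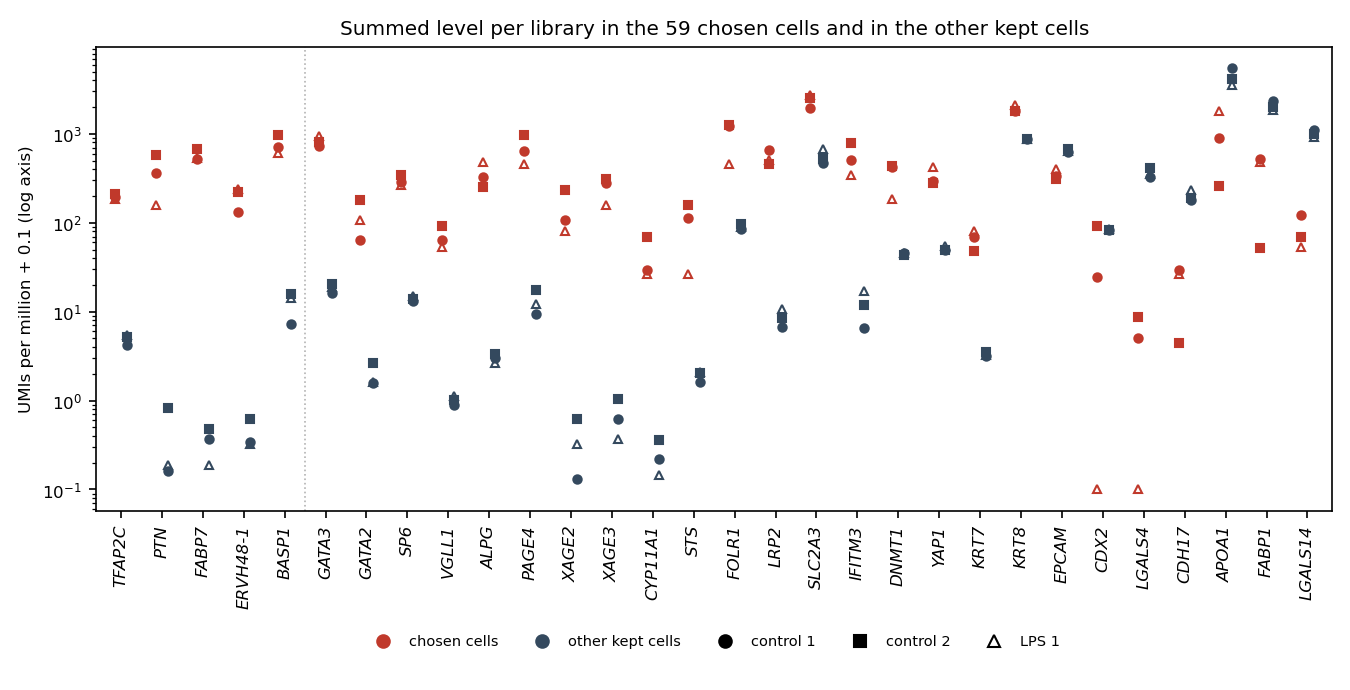
Level of 30 genes summed over the chosen cells (red) and over the other kept cells (dark blue) of each library, in CPM plus 0.1 on a log axis. The genes left of the dotted line chose or mark the cells. GATA3 sits at 733 to 935 in the chosen cells and at 16.1 to 20.2 in the others, while APOA1 and LGALS14 are lower in the chosen cells of every library.

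The chosen cells did not all carry the same rule genes. A cell held between 3 and 42 rule UMIs, with a median of 9. Of the 59 cells, 22 held 2 rule genes, 22 held 3 and 15 held all 4. PTN was detected in 52 cells, TFAP2C in 42, FABP7 in 41 and ERVH48-1 in 35, and BASP1 in 56. FABP7 and ERVH48-1 were found together in 23 cells, and 18 cells had FABP7 without ERVH48-1. No LPS cell carried all 4 genes. The 10 cells just inside the limit, with exactly 3 UMIs, held 955 CPM of GATA3 and 689 CPM of BASP1. The 7 cells just outside, with 2 UMIs of 2 rule genes, held 311 CPM of GATA3 and 378 CPM of BASP1, and the 15096 cells with no rule UMI held 17.2 and 10.8 CPM.

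The chosen cells made up 0.393% of control 1 (20 cells, exact binomial 95% interval 0.240 to 0.606%), 0.603% of control 2 (32 cells, 0.413 to 0.850%) and 0.136% of the LPS library (7 cells, 0.0546 to 0.279%). The controls averaged 0.498% ± 0.149 (SD, n = 2). The LPS interval lay below that of control 2 and overlapped that of control 1. These intervals cover counting error only, and with 1 LPS library the share was not tested between treatments. When every cell was thinned to 1500 UMIs before the rule, the shares were 0.157%, 0.226% and 0.0388%, and the LPS interval of 0.00469 to 0.140% overlapped both control intervals.

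Every chosen cell scored as Caco-2. The score was the share of HT29-list UMIs among all UMIs on lists of HT29 and Caco-2 genes taken from the study. It had a limit of 28.3% between the lines, and 2599 of the other kept cells lay above it. The chosen cells ranged from 13.8 to 23.2% in control 1, from 10.8 to 24.1% in control 2 and from 15.6 to 23.8% in the LPS library. Their medians of 19.8, 18.3 and 19.1% were close to the 19.5, 19.9 and 19.7% of the other Caco-2-line cells, and far from the 37.5, 37.2 and 36.0% of the HT29-line cells. The chosen cells were deeper, with median totals of 6949.5, 7220.5 and 4212 UMIs against 5488, 4188 and 3675. Their median mitochondrial share was also higher, at 4.39, 8.56 and 6.44% against 3.62, 4.04 and 4.43%. A deeper cell reaches the 3 UMIs of the rule more easily. The median total was 3721.5 UMIs in chosen cells with exactly 3 rule UMIs and 8624.5 in those with 10 or more. The part of the rule in the depth difference was not tested. Scrublet's automatic threshold called 1 doublet in the whole series, and 1 chosen cell was among the 6% of cells with the highest scores.

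**Figure D2:**
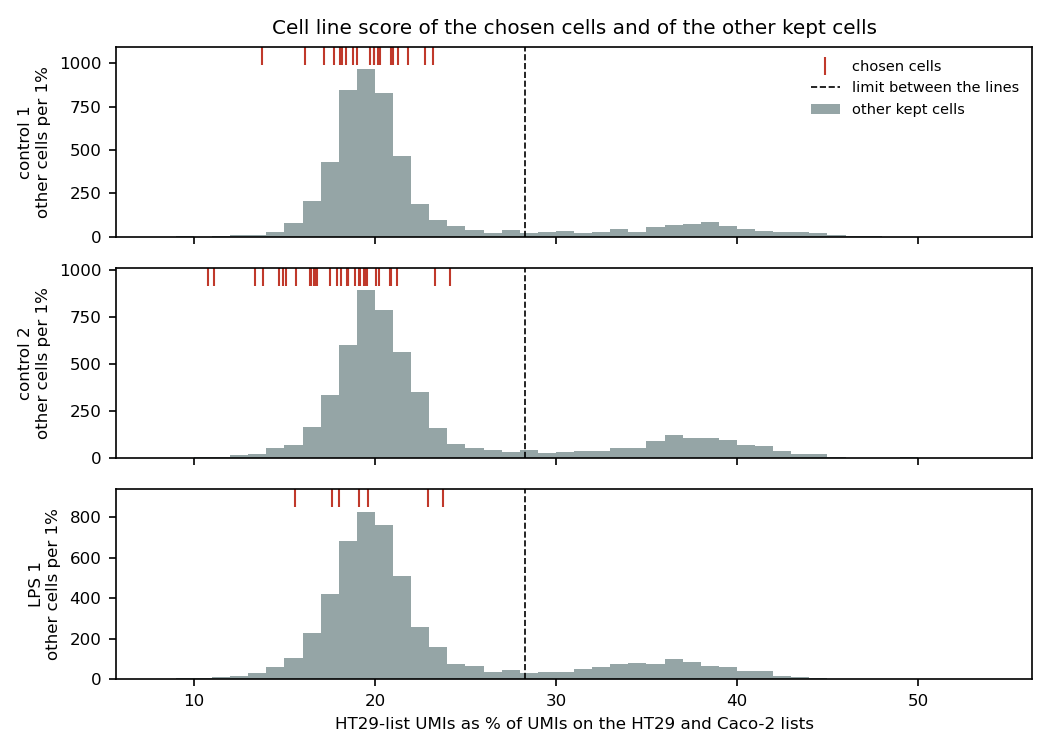
Number of other kept cells per 1% of the cell line score (grey bars) and the score of each chosen cell (red ticks, placed above the bars) in the 3 libraries. The dashed line is the limit of 28.3% between the lines, and all 59 chosen cells lie left of it.

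To ask what else differed in these cells, UMIs were summed per library over the chosen cells and over the other kept cells, and the sums were compared with edgeR's quasi-likelihood test with the library as a block. The rule genes were left out of the fit. Of 13752 genes tested, 1900 passed an adjusted p of 0.05, or 13.8%, with 683 higher in the chosen cells (4.97%) and 1217 lower (8.85%). Of the 683, 541 were higher in all 3 libraries, and of the 1217, 1080 were lower in all 3. A log2 difference of more than 2 was reached by 356 of the higher and 639 of the lower genes. The chosen cells held only a single-digit UMI count for 648 of the lower genes, among them 180 with no UMI, and for 62 of the higher genes. Fitted falls of the 180 are known only as bounds. In the LPS library 1 UMI is 26.7 CPM in the chosen cells. A gene below that level in the other cells can be lower there only at 0 UMIs. The cells were gated on genes of the same cells, so these calls describe what goes with the rule genes in these libraries. The study's own table for the cluster of fetal genes expressing cells (FGEC) was made on the 2 controls. Outside the rule genes 204 of its genes were found here, 203 of them among the higher calls, which is not independent evidence. In the LPS library, which that table did not use, 185 of the 204 were higher in the chosen cells, 15 had no UMI there and 4 were lower, at 37434 UMIs in all. The share of all tested genes higher in those cells was not counted. The LPS cells were also gated on the 4 rule genes, which are in that table, so the 185 are not independent evidence either.

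The block left 2 residual degrees of freedom, and the calls fell to 618 without control 1 and 587 without control 2. With library size in place of TMM factors, 60.9% of 1945 calls were higher in the chosen cells instead of 35.9%, and the median log2 difference of all genes moved from -0.29 to 0.09, a shift of 0.38. No gene called under both changed sign.

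**Figure D3:**
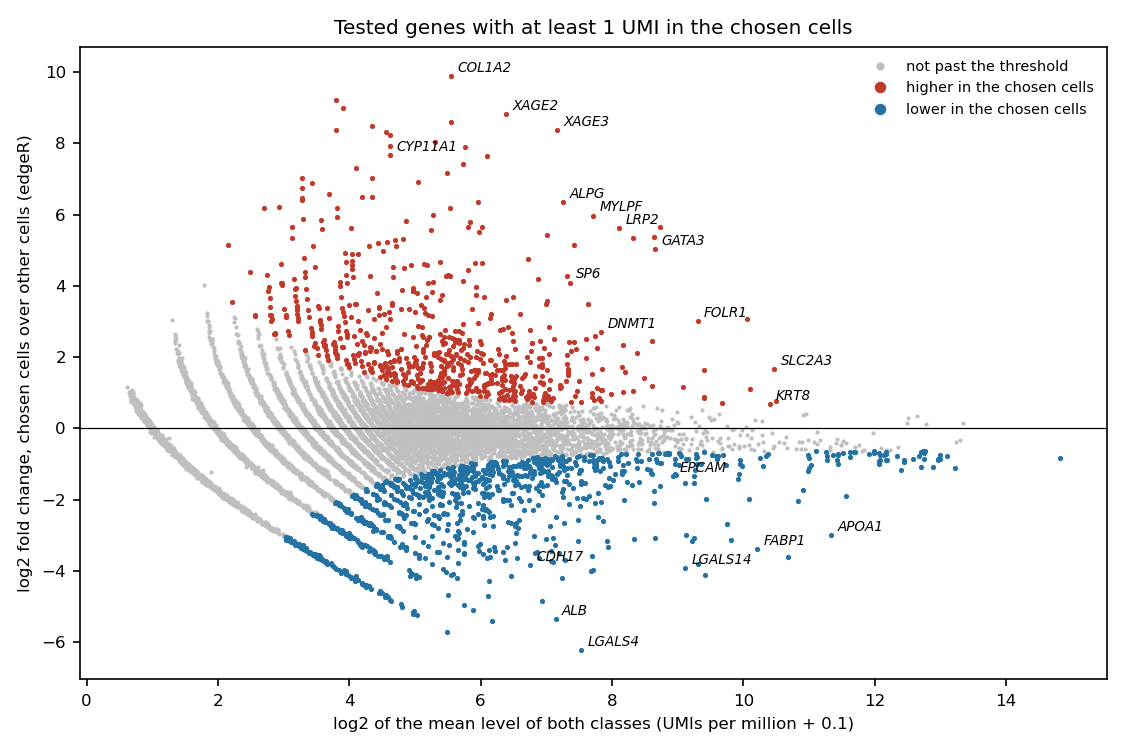
Log2 fold change of the chosen cells over the other kept cells, as fitted by edgeR, against the log2 mean level of both classes, for tested genes with at least 1 UMI in the chosen cells. Red and blue points passed the threshold (683 higher and 1217 lower, of which 180 lower genes without a UMI in the chosen cells are not drawn). XAGE2, XAGE3 and COL1A2 stand at the top, and LGALS4 and ALB among the lowest.

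Many trophoblast transcription factors were higher. Of 25 listed, 18 could be tested, 12 were higher and 1 was lower, with a median log2 difference of 2.24 against -0.29 over all genes tested, and 9 of the 12 are in the study's table. The list had 11 higher genes without control 1, 8 without control 2 and 5 of 17 with every cell thinned to 1500 UMIs. TFAP2A counts among the 12 on 8 UMIs in 6 cells, all of control 2, and was not called without that library. GATA3 (ENSG00000107485, chr10:8045378-8075198), a zinc-finger factor of trophoblast, was at 733, 816 and 935 CPM in the chosen cells and at 16.1, 20.2 and 18.99 CPM in the others, a log2 difference of 5.04 ± 0.26 (SE, adjusted p = 8.65e-80, edgeR). Its UMIs were spread over the group. It was detected in 91.5% of the chosen cells, in 9.41% of the other Caco-2-line cells and in 1.96% of HT29-line cells, and after thinning to 1500 UMIs in 59.3%, 3.1003% and 0.770%. Its partner GATA2 was at 64.0, 178 and 107 CPM against 1.49, 2.53 and 1.52 CPM (log2 difference 5.51 ± 0.44). SP6, a zinc-finger factor of epithelial development, was at 286, 347 and 267 CPM against 13.1, 13.8 and 14.8 CPM (4.09 ± 0.26). VGLL1, a TEAD cofactor of trophoblast, was at 64.0, 91.1 and 53.4 CPM against at most 1.03 CPM (5.99 ± 0.55). MSX2, TBX3, NR6A1, GRHL1, TEAD4 and NR2F2 were higher by 1.65 to 2.48 on the log2 scale. ELF5 and EOMES, factors of trophoblast stem cells, had no UMI in any chosen cell. CDX2, shared by trophectoderm and intestine, was lower at 24.6, 91.1 and 0 CPM against 82.8, 82.2 and 84.4 CPM (log2 difference -1.03 ± 0.35, adjusted p = 0.0244, edgeR), with control 2 above the other cells. It was not called without control 1, at -0.72, nor with DESeq2 or with library size in place of TMM factors.

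TFAP2C binds, as an AP-2 factor, the palindrome GCCNNNGGC, which reads the same on both strands. Promoter stretches of 3 raised genes are shown as examples of a match and were picked for holding one. The promoters of PTN, FABP7, BASP1, XAGE2, XAGE3, CCKBR, TRIML2, IGFBP3, DPPA3, VGLL1, AKAP12, IFITM3 and PAGE4 held none. Sequences are from RefSeq (GRCh38.p14) and run 5′ to 3′ on the gene's own strand, here plus in each, upstream of the start site, with matches in capitals.
GATA3, chr10:8045090-8045138: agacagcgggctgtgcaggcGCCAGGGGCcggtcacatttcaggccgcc
SLC12A3, chr16:56865069-56865150: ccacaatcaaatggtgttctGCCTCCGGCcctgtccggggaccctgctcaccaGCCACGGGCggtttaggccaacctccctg
ALPG, chr2:232406594-232406625: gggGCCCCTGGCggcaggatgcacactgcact
From 250 bases before to 50 after the start, 36.7% of 251 promoters of genes higher by more than 2 on the log2 scale held the palindrome. The share was 32.3% of the 10222 tested genes in the promoter table, 28.1% of 466 genes lower by more than 2 and 23.0% of all 27305 promoters. A match is a run of letters and not a binding site.

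Among syncytiotrophoblast products, placental alkaline phosphatases and cancer-testis antigens of the X chromosome were raised and the hormones were not detected. Of 34 listed genes, 10 could be tested, with 5 higher and 1 lower, and 22 had no UMI in the chosen cells. Without the filter on low counts 20 were tested, with 6 higher and 1 lower. CGA, CGB3, CGB5, CSH1 and PSG1, which encode chorionic gonadotropin, placental lactogen and a pregnancy-specific glycoprotein, were at 0 in every kept cell. At 471042 UMIs in all chosen cells, a count of 0 allows up to 6.37 CPM. ALPG, a placental-type alkaline phosphatase, was at 329.8, 252 and 481 CPM against 2.91, 3.24 and 2.55 CPM (log2 difference 6.35 ± 0.28) and was found in 27 of 59 cells. ALPP was at 29.5, 56.4 and 26.7 CPM (5.21 ± 0.68). It lies next to ALPG on chromosome 2, and the 2 are so alike that reads may be shared between them. XAGE2 was at 108.3, 234 and 80.1 CPM against at most 0.528 CPM, in 30 cells (8.83 ± 0.50). XAGE3 was at 281, 312 and 160.3 CPM against at most 0.943 CPM, in 16 cells (8.37 ± 0.33), and near-identical family members could share its reads too. PAGE4 was at 645, 959 and 454 CPM against 9.20, 17.6 and 12.2 CPM, in 27 cells (5.37 ± 0.28). In the LPS library 15 of the 17 PAGE4 UMIs, and all UMIs of XAGE2 and XAGE3, came from 1 cell. LGALS14, a placental galectin, went the other way, with 123, 69.4 and 53.4 CPM against 1093, 1000.3 and 918 CPM (-3.92 ± 0.31).

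Retroviral envelope genes and their receptors gave 2 calls, since of 10 listed 6 were tested, with 1 higher and 1 lower. ERVMER34-1 was at 83.7, 30.4 and 26.7 CPM against 11.5, 11.6 and 12.02 CPM (log2 difference 1.81 ± 0.44), and was not called without control 1, at 0.96. SLC1A5, the receptor of syncytin-1, was at 98.5, 73.8 and 134 CPM against 177, 196 and 204 CPM (-1.43 ± 0.30), and was not called without control 2, at -1.25. The syncytins did not pass the filter on low counts. Without that filter the list had 3 higher and 1 lower of 10, and the added calls were ERVW-1 and ERVFRD-1. Syncytin-2, ERVFRD-1, had 12 UMIs, all in 1 cell of control 2. That cell, singled out after its values were seen, also held all 12 LGALS16 UMIs and both PSG5 UMIs of the chosen cells. It held 4 of the 7 UMIs of GCM1, the factor that drives syncytin expression, 5 of the 12 UMIs of syncytin-1, ERVW-1, and 4 of the 6 UMIs of CYP19A1, the placental aromatase.

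Steroid synthesis genes were mixed, with 4 of 11 tested genes higher and 2 lower, and the counts were 2 and 1 without control 2 and 4 and 0 without control 1. STS, the steroid sulfatase, was at 113, 156 and 26.7 CPM against 1.52, 1.92 and 2.01 CPM (log2 difference 5.67 ± 0.43). HSD17B1, which makes estradiol, was at 133, 104 and 107 CPM against 3.64, 3.47 and 3.62 CPM (4.64 ± 0.40). CYP11A1, which cleaves the side chain of cholesterol, was at 29.5, 69.4 and 26.7 CPM against at most 0.264 CPM (7.66 ± 0.77) on 23 UMIs in 15 cells. HSD17B2, which oxidises estradiol in intestine, was at 0 in all chosen cells against 35.1, 20.5 and 18.2 CPM.

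Genes of villous cytotrophoblast, of nutrient uptake and of extravillous trophoblast were each higher in part. Of 14 cytotrophoblast genes tested, 6 were higher and 3 lower, and the counts were 3 and 2 without control 1 and 3 and 1 without control 2. KRT7, a trophoblast keratin, was at 68.9, 47.7 and 80.1 CPM against 3.096, 3.39 and 3.13 CPM (log2 difference 3.85 ± 0.51), from 11 cells. EGFR was at 256, 130.2 and 26.7 CPM against 28.8, 32.3 and 38.9 CPM (2.01 ± 0.27). Its LPS value is 1 UMI, too few to place it below the other cells of that library. Of 18 transport genes, 10 were higher and 1 lower, with a median of 1.38. SLC2A3, the high-affinity glucose transporter, was at 1959, 2525 and 2725 CPM against 469, 515 and 675 CPM (1.67 ± 0.24) and was found in 58 of 59 cells. FOLR1, the folate receptor, was at 1211, 1263 and 454 CPM against 84.5, 97.5 and 89.8 CPM (3.02 ± 0.26). LRP2, the uptake receptor megalin, was at 649.8, 456 and 508 CPM against 6.62, 8.45 and 10.5 CPM (5.63 ± 0.27), and its adaptor DAB2 rose by 2.38 ± 0.27. Its intestinal partner CUBN was at 0 against 22.0, 11.3 and 15.8 CPM. The amino acid carriers SLC7A8, SLC7A6 and SLC7A5 were higher by 4.27 ± 0.26, 2.46 ± 0.33 and 1.82 ± 0.29. Of 10 extravillous genes tested, 3 were higher: MMP14, a membrane protease, by 2.54 ± 0.37, the Wnt-inactivating enzyme NOTUM by 4.59 ± 0.51 and FSTL3 by 1.98 ± 0.26. Without control 1, EGFR (1.15) and FSTL3 (0.98) were not called. HLA-G, the class I molecule of extravillous trophoblast, was at 0 in the chosen cells.

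**Figure D4:**
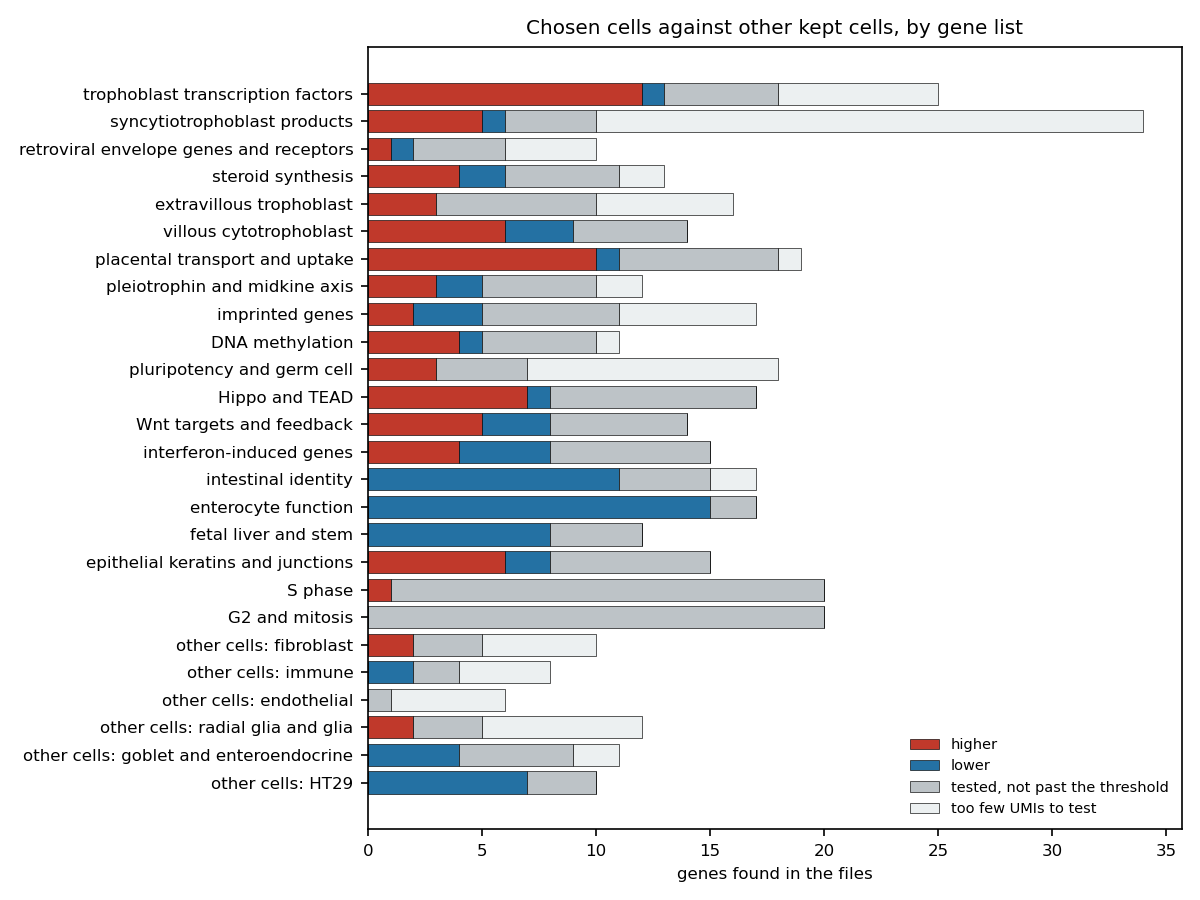
Number of genes found in the files per gene list, split into higher or lower in the chosen cells (edgeR, adjusted p under 0.05), tested without passing, and too few UMIs to test. Trophoblast transcription factors had 12 of 18 tested genes higher, and enterocyte function had 15 of 17 lower.

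In the signalling lists, the other genes of the PTN pathway were divided. MDK, the related growth factor midkine, was at 916, 1180.2 and 427 CPM against 329, 401 and 321 CPM (log2 difference 0.85 ± 0.25), and was not called without either control (0.57 and 0.52). NRP1 and GPC1, co-receptors of heparin-binding ligands, were higher by 2.95 ± 0.34 and 2.15 ± 0.43, and GPC3 and LRP1 were lower, by -1.61 ± 0.28 and -1.04 ± 0.31. GPC1 and LRP1 were not called without either control, nor GPC3 without control 2 (-1.19). PTPRZ1 and ALK, the receptors known for pleiotrophin, were at 0 in the chosen cells. Of 17 Hippo pathway genes, 7 were higher and 1 lower, and 4 were higher without control 1, 3 without control 2 and none lower in either. YAP1, the coactivator of TEAD factors, was at 295, 282 and 427 CPM against 49.7, 48.9 and 54.0 CPM (2.23 ± 0.25). Of 14 Wnt genes, 5 were higher, among them AXIN2 (2.09 ± 0.40) and ZNRF3 (2.55 ± 0.38), which dampen the pathway, and 3 were lower, among them SOX9 (-2.87 ± 0.50), an intestinal progenitor factor, and DKK1.

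DNA methylation genes had 4 of 10 tested higher and 1 lower, or 3 and 0 without either control. DNMT1, which copies methylation after replication, was at 428, 434 and 187 CPM against 45.6, 42.8 and 45.2 CPM (log2 difference 2.69 ± 0.25). DNMT3B, a de novo methylase, was at 68.9, 99.8 and 26.7 CPM against 3.40, 5.05 and 5.76 CPM (3.74 ± 0.45). Among 7 tested genes of pluripotency and germ cells, DPPA3 (6.92 ± 0.63), SALL4 (2.75 ± 0.36) and TFCP2L1 (4.90 ± 0.76) were higher, and NANOG and POU5F1, which define pluripotent cells, were at 0. Of 11 imprinted genes tested, 2 were higher and 3 lower. CDKN1C, a growth inhibitor of the placenta, was at 236, 226 and 160.3 CPM against 35.5, 44.3 and 39.3 CPM (2.08 ± 0.26), and PHLDA2, another, was at 73.8, 104 and 26.7 CPM against 228, 204 and 219.9 CPM (-1.78 ± 0.31), though not called against Caco-2-line cells alone at -0.49. Interferon-induced genes had 4 of 15 higher and 4 lower, of which 1 was called lower without control 1. IFITM3 (502, 781 and 347 CPM against 6.49, 11.8 and 16.9 CPM) and its neighbour IFITM2 (300.3, 378 and 267 CPM against 5.13, 7.84 and 9.34 CPM) block viral entry and, in placenta, syncytin-driven fusion. They were higher by 5.35 ± 0.28 and 5.15 ± 0.26, while IFI27 and OAS1 were lower, and ISG15, lower here, no longer passed against Caco-2-line cells alone (adjusted p = 0.373, edgeR).

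The intestinal programme was low in the chosen cells. Of 15 intestinal identity genes tested, none was higher and 11 were lower, with a fitted median log2 difference of -3.84. Setting the genes without a UMI to their bound gave -1.35, against -0.05 for all genes tested. EPCAM, the epithelial adhesion molecule, remained present at 335, 312 and 401 CPM against 626, 669.8 and 644 CPM (-1.35 ± 0.26). CDH17, intestinal cadherin, was at 29.5, 4.34 and 26.7 CPM against 178, 190.3 and 235 CPM (-3.84 ± 0.43), and HNF4A and VIL1 stood at -2.48 ± 0.40 and -3.43 ± 0.45. Of 17 enterocyte genes, 15 were lower and none higher. APOA1, the main protein of high-density lipoprotein, was at 891, 256 and 1817 CPM against 5493, 4100.0 and 3579 CPM (-2.997 ± 0.26), and FABP1, the fatty acid carrier of enterocytes, at 522, 52.1 and 481 CPM against 2314, 1993 and 1873 CPM (-3.39 ± 0.28). These UMIs were unevenly spread, since 7 cells held 279 of the 308 APOA1 UMIs and 41 cells held none. An APOA1 UMI was found in 30.5% of the chosen cells, in 97.2% of the other Caco-2-line cells and in 28.9% of HT29-line cells. Of 12 genes of fetal liver and stem cells, 8 were lower, or 4 without control 1 and 5 without control 2, among them ALB (-5.35 ± 0.48) and AFP (-4.20 ± 0.41).

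KRT8, KRT18 and KRT19, the keratins of simple epithelia, were found in 57, 59 and 59 of the chosen cells. Of 15 keratin and junction genes tested, 6 were higher and 2 lower, and the counts were 4 and 1 without control 1 and 3 and 1 without control 2. KRT8 was at 1826, 1796 and 2110.4 CPM against 865, 867 and 871 CPM (log2 difference 0.68 ± 0.23), and lost its call without either control at 0.63. KRT18 and KRT19 did not pass, at 0.40 ± 0.24 and -0.09 ± 0.24. DSP, the desmosome protein desmoplakin, was at 994, 1150 and 1175 CPM against 246, 243 and 302 CPM (1.64 ± 0.24). The lower genes were the intestinal keratin KRT20 (-4.95 ± 0.62) and CLDN7, a claudin of tight junctions, at 113, 104 and 107 CPM against 148, 155 and 141 CPM (-0.85 ± 0.29). CLDN7 was not called without control 1 (-0.98), without control 2 (-0.86) or against Caco-2-line cells alone (-0.49). Of 20 S phase genes 1 was higher, MCM5, which was not called without control 2 (0.46). Of 20 G2 and mitosis genes none passed (edgeR), while 3 were higher without the LPS library. With library size in place of TMM factors, 3 genes were higher in each of the 2 lists. After thinning to 1500 UMIs, 55, 40.6 and 28.6% of the chosen cells held at least 2 UMIs of G2 and mitosis genes, against 24.4, 31.5 and 29.7% of the other Caco-2-line cells.

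Markers of other cell types were mixed, since some were at 0, while the fibroblast, glial and endothelial lists summed above the other kept cells in every library. Chosen cells held 203143, 230465 and 37434 UMIs in control 1, control 2 and the LPS library, and in the last 1 UMI is 26.7 CPM. The endothelial, immune, and goblet and enteroendocrine sums below thus rest on few UMIs, on 1 each in the LPS library. SOX10, GFAP and PAX6 of glia and radial glia, PTPRC of immune cells, CDH5 and KDR of endothelium and DCN, PDGFRB and THY1 of fibroblasts had no UMI in the chosen cells. Of the 12 glial genes, 5 were tested and SLC1A3 and PMEL were higher, by 2.52 ± 0.37 and 4.11 ± 0.48, with the list summing to 158, 191 and 53.4 CPM against 31.4, 31.3 and 37.2 CPM, 7 of its genes at 0 and SLC1A3 its most abundant gene. Of the 10 fibroblast genes COL1A1 and COL1A2 were higher, and the list summed to 108.3, 60.7 and 748 CPM against 19.3, 26.5 and 24.6 CPM, with 6 genes at 0. The most abundant was COL1A2, which reached 695 CPM in the LPS library on 26 UMIs of 1 cell. The HT29 list summed to 217, 247 and 187 CPM in the chosen cells and to 2832, 2828 and 2782 CPM in HT29-line cells, and its genes LCN2, TCN1 and KLK10 were at 0. Endothelial genes summed to 9.85, 17.4 and 26.7 CPM against 2.09, 2.19 and 2.28 CPM, with VWF the most abundant and 4 of 6 at 0. Goblet and enteroendocrine genes summed to 0, 8.68 and 26.7 CPM against 72.3, 102 and 127 CPM, and immune genes to 14.8, 17.4 and 26.7 CPM against 247, 276 and 271 CPM. In the other Caco-2-line cells the sums were 23.2, 42.5 and 80.5 CPM for goblet and enteroendocrine genes. For immune genes they were 77.2, 80.9 and 85.1 CPM. Against those cells none of 7 goblet and enteroendocrine genes tested was lower, and 2 of 4 immune genes were. The part of these genes in the calls was not tested.

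The genes with the largest rises among those higher in every library with at least 20 UMIs ranged from COL1A2 (9.90 ± 0.64) to AKAP12 (5.82 ± 0.62). Beside XAGE2, XAGE3, CYP11A1, DPPA3, ALPG and VGLL1 they held FLT1, a receptor of placental growth factor (197, 95.5 and 53.4 CPM against 0.486, 0.528 and 0.357 CPM), IGFBP3, which binds insulin-like growth factors (78.8, 108.5 and 267 CPM against 0.273, 0.490 and 0.357 CPM), and the ligand WNT6 (68.9, 34.7 and 26.7 CPM against at most 0.268 CPM). CLDN6, an embryonic tight junction protein, was at 113, 95.5 and 134 CPM against at most 0.528 CPM. CCKBR, the gastrin receptor, was at 123, 78.1 and 26.7 CPM against at most 0.302 CPM. The salt transporter SLC12A3, TRIML2, LHFPL6, the proton pump subunit ATP6V1C2 and the keratin KRT23 were the others of epithelial or unassigned function. The muscle genes TNNT3 and MYLPF completed the 20, with MYLPF at 581, 329.8 and 53.4 CPM against 4.89, 4.15 and 3.80 CPM (5.98 ± 0.28). Only 3 of the 20 are in the study's table. COL1A2 rested on few cells, with 44 UMIs in 6 cells and a log2 difference of 7.81 without the LPS library, and the other 19 were detected in 13 to 33 of the 59.

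The largest falls were genes without a UMI in the chosen cells: CEACAM6, MUC13, HLA-B, KLK11, GSTA1, C3, GCNT3, XIST, CD44 and PRSS2. Several of these are HT29-line genes, so the bound was also set against the other Caco-2-line cells. Against those, GSTA1, a detoxifying transferase of enterocytes, was at least 9.37-fold lower, the complement factor C3 at least 8.38-fold, CEACAM6 at least 7.001-fold, the membrane mucin MUC13 at least 6.27-fold and HLA-B at least 4.71-fold. The bounds were lower for PRSS2 (2.13-fold), GCNT3 (2.03-fold), XIST (1.76-fold), KLK11 (1.69-fold) and CD44 (1.45-fold). Each was set against a floor of 3 counts over all chosen cells. Against all other cells the adjusted p was 8.51e-14 for CEACAM6 and 2.1e-09 for GSTA1 (edgeR). Against the other Caco-2-line cells all 10 passed as well, with CD44 the weakest (adjusted p = 0.0366, edgeR).

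**Figure D5:**
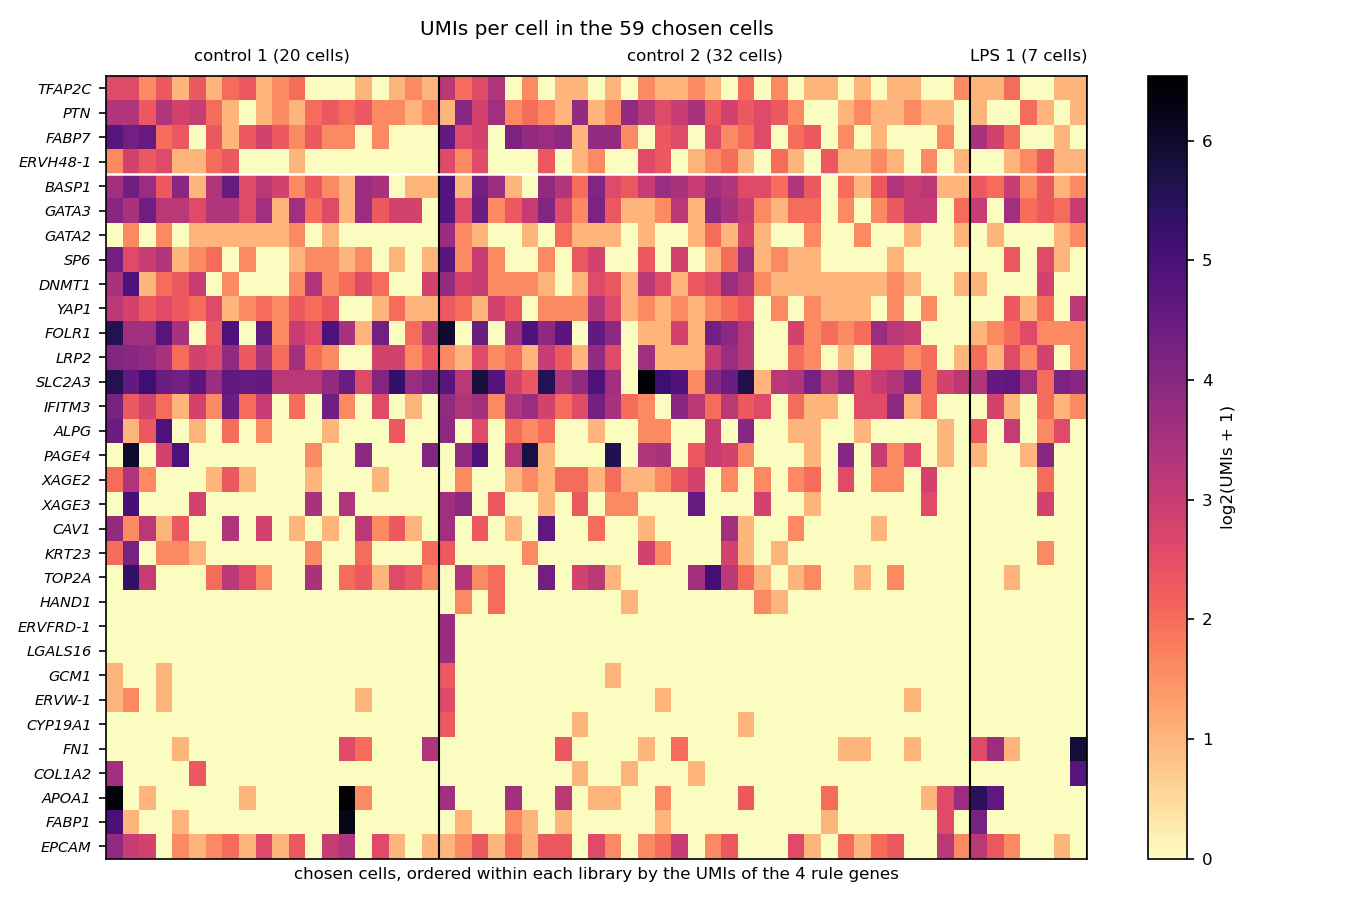
UMIs per cell, as log2(UMIs + 1), of 32 genes (rows) in the 59 chosen cells (columns), grouped by library and ordered by their rule UMIs. The rows above the white line are the rule genes. GATA3 and SLC2A3 run through nearly all cells, PAGE4 and XAGE3 through some, and ERVFRD-1 and LGALS16 appear in 1 cell of control 2.

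Within the group, 27 cells held PAGE4, 16 held XAGE3, 8 held both and 24 neither. PAGE4 was thus found in 50% of the XAGE3 cells and in 45.8% of all chosen cells. HAND1, a factor of extraembryonic tissue, was found in 5 cells, all of control 2, and 4 of these also held XAGE3. TP63, the factor of cytotrophoblast progenitors, had 12 UMIs in 10 cells. TOP2A, made by dividing cells, was found in 30 cells.

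LPS against control within the chosen cells rests on 7 LPS cells with 37434 UMIs, where 1 UMI is 26.7 CPM, and the lone LPS sum is assumed to vary as the control sums do. Of 14984 genes tested, 54 passed in edgeR (0.36%), 12 higher (0.0801%) and 42 lower (0.28%) in LPS. For each of the 12 higher genes, more than 50% of the LPS UMIs came from 1 cell. The 5 genes with the largest fitted changes had no UMI in the LPS cells, so that their falls are known only as bounds. CAV1, the coat protein of caveolae, was at 295 and 256 CPM in the controls, in 13 of 20 and 10 of 32 cells, and was at least 3.42-fold lower against a floor of 3 counts over the LPS cells. The bounds were 2.79-fold for the troponin TNNI2, 2.76-fold for HMGB3, 2.53-fold for the iron exporter SLC40A1 and 2.22-fold for MDH1. FN1, the matrix protein fibronectin, was at 88.6, 47.7 and 2004 CPM, and 57 of its 75 LPS UMIs came from the cell that held all 26 of COL1A2. The effect of LPS was also set against that in the other kept cells, where 25 genes differed (0.167%), with 7 higher in the chosen cells (0.0467%) and 18 lower (0.12%). With library size in place of TMM factors 5 genes passed, and with the chosen cells alone in the fit 2 did, all of them higher in LPS. None of the 42 falls, CAV1, TNNI2, HMGB3, SLC40A1 and MDH1 included, passed in either fit.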

How the data were processed

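The authors mapped 10x Genomics reads to GRCh38 with Cell Ranger (version 3.1.0 in the file headers, another version in the paper's methods) and deposited UMI counts per gene and barcode, not normalized, for barcodes that include some below the study's cell minimums. The annotation used is not given in the sources used here. The members, gene lists and tests were chosen with earlier results of these data known. Barcodes were kept at 1500 UMIs, 700 genes and 20% mitochondrial UMIs. Doublets were scored with Scrublet in scanpy 1.11.5 and not removed, and the 6% with the highest scores were removed as an alternative. Cell lines were split by 2-means on the share of HT29-list UMIs. Counts were summed per library and class. The main test was edgeR 4.0.16 (R 4.3.3) with TMM factors, its filter on low counts, the library as a block and a Benjamini-Hochberg threshold of 0.05. The block is used because both sums of a library come from the same insert. DESeq2 1.42.0 was the other tool. LPS was tested in the same 6 sums as 4 groups without the block, which leaves the pairing of the sums unused. A block cannot be fitted within the chosen cells, where library and treatment coincide, and was tried for the interaction. Tested on simulated data, the members' comparison recovered 78% of 200 genes changed by 2 on the log2 scale and 8.5% of those changed by 1, and the LPS comparison recovered 9.5% of those changed by 2, with 13.6% of its calls false. The simulated sums used the other cells' profile with 1 dispersion for all genes, and only genes above 20 CPM there were changed. Many named rises lie far below that level, and some real UMIs lay mostly in 1 cell. These rates may therefore not hold for the genes named. Genes named are the rule and marker genes, the 20 largest rises and 10 largest falls among calls on the same side in 3 libraries with at least 20 UMIs in the higher class, list genes as examples, and the 5 largest LPS changes. Positions are from GENCODE 44 by Ensembl ID. CPM intervals and floors cover counting error only.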

Additional observations from a re-analysis of the deposited data

Results flagged for a closer look

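The effect of LPS differed between the chosen cells and the other kept cells for 25 of 14984 genes in edgeR's test of the interaction (0.167%), 7 with a higher log2 effect in the chosen cells and 18 with a lower one. The adjusted p of this difference was 0.00845 for CAV1, 0.00845 for SLC40A1 and 0.0243 for HMGB3, all with 0 UMIs in the 7 LPS cells and with UMIs in the chosen cells of both controls. For FN1 the interaction was 4.07 ± 0.38 in log2 units, with an adjusted p of 8.49e-23 by the same test, and 4.07 with an adjusted p of 1.85e-23 with the library as a block, which left 1 residual degree of freedom. Of its UMIs in the LPS cells 57 of 75 lay in 1 cell, and 4 of the 7 LPS cells held an FN1 UMI. TOP2A and UBE2C, made in dividing cells, also differed, with 94 and 110 TOP2A UMIs in the chosen cells of the controls and 1 in the LPS library, and 77, 92 and 1 of UBE2C. These tests rest on 1 LPS library, in which the chosen cells hold 37434 UMIs, and the part of depth was not tested. The LPS sums have no spread of their own and are assumed to vary as the control sums do. Over all 14984 genes the median of this difference was -0.756. The TMM factor of the chosen cells was 1.48 in the LPS library, against 1.04 and 1.06 in the controls. The difference was not run with library size alone.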

How the results depend on the processing

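Of 163 named or listed genes called between the chosen cells and the others, all kept their direction under every alternative that could fit them, except 2. TFAP2A was 3.01 on the log2 scale and ranged from -7.43 without control 2, where it has no UMI in the remaining chosen cells, to 3.85 without control 1. ANXA1 was -1.32 and became 1.22 against Caco-2-line cells alone. Without the replicate block, in a fit not paired by library, 2222 genes passed and 160 of the 163 stayed called, so 3 were lost. Of all 1900 calls, 1855 were made again. Without control 1, 50 of the 163 lost their call, and without control 2, 54 did, beside TFAP2A. The call was also lost by 69 with every cell thinned to 1500 UMIs and by 33 with DESeq2. With 3 rule genes required 20 lost it, and with library size alone 15 did. Among the genes named above, NR2F2 (1.38 and 1.34) and COL1A1 (1.79 and 1.60) were lost without either control, as were CUBN, OAS1, TCN1 and KLK10, ISG15 (-1.43) and HSD17B2 without control 1, and GRHL1 (1.97), TFCP2L1 (4.11) and AXIN2 (1.85) without control 2. The count of 1900 ranged from 587 to 2280 when 1 library was left out, and was 998 with DESeq2, which left 3466 genes without an adjusted p, and 580 with every cell thinned to 1500 UMIs, an alternative chosen after seeing the data, where 527 of the 1900 were called again. The cause of these differences was not tested. The share of the controls was 0.315% when 3 rule genes were required, 0.765% with BASP1 added to the rule genes and 0.192% after thinning. The 54 LPS calls were 31 with DESeq2, 23 with upper-quartile factors, 5 with library size alone, 17 with at least 4 rule UMIs, 13 with the highest doublet scores removed and 2 with the chosen cells alone. The split of 12 higher and 42 lower became 14 and 17 with DESeq2, 5 and 0 with library size alone and 2 and 0 with the chosen cells alone, and the 5 named falls lost their call in these 3 fits. With the replicate block, added after seeing the data, 37 genes differed in their LPS effect in place of 25, of which 24 were called again. Some of the LPS genes named also lost their call with upper-quartile factors, with at least 4 rule UMIs and with the highest doublet scores removed. COL1A2, higher by 3.54 in LPS, became -11.9 with at least 4 rule UMIs, since the cell that holds it has 3. Leaving out a control leaves the LPS comparison no residual degree of freedom, so it was not run.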
